A study of Mus musculus with 72 samples.

Results

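The comparison of whole-body *Bmal1* knockout (KO) with wild-type (WT) gastrocnemius at 40 weeks of age rested on 10 RNA-Seq libraries, 5 WT and 5 KO, out of 72 in the series, selected by their labels for tissue, genotype, and age. All mice were male, the KO mice were bred from heterozygous parents and the WT mice were their littermates, and neither group received a viral vector. Muscle was taken at ZT1, shortly after lights on, and all 10 libraries, made from poly(A) RNA, came from Novogene, so site did not differ between the groups. The deletion is present in every tissue, so loss of BMAL1 in muscle fibers and loss elsewhere in the body cannot be told apart. The labels do not say which part of the gene is deleted. KO and WT gastrocnemius at 10 weeks, 6 libraries of each divided between Novogene and ICBR, served only to set the 40-week differences beside those of younger mice.

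BMAL1, the product of *Arntl*, pairs with CLOCK or with its relative NPAS2 and activates genes through E-boxes. Among these genes are its own repressors, the Per and Cry genes, and the REV-ERB genes *Nr1d1* and *Nr1d2*, whose products repress through ROR elements, where ROR proteins activate. BMAL1 and CLOCK also drive the PAR bZIP factors *Dbp*, *Tef*, and *Hlf*, which activate through D-boxes that NFIL3 represses. In skeletal muscle this clock is known for its hold on glucose uptake, fuel choice, and genes of muscle identity.

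The promoters of 4 of these genes are shown because each fell in KO muscle and holds an element of the clock. The sequences are those of RefSeq on GRCm38.p6, read 5′ to 3′ on the strand of the gene, within the 250 bases before its start and stopped at the first annotated exon base. Capitals mark the E-box CACGTG in the promoters of *Ciart* (chr3:95882252-95882478, minus strand), *Bhlhe41* (chr6:145865559-145865670, minus strand), and *Tef* (chr15:81811164-81811413, plus strand), and the D-box TTATGTAA in that of *Per3* (chr4:151044666-151044915, minus strand).
Ciart: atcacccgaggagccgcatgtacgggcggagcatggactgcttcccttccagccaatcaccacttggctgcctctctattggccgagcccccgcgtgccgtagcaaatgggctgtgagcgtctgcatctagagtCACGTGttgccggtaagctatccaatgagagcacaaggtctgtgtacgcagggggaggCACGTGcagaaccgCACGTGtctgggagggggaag
Bhlhe41: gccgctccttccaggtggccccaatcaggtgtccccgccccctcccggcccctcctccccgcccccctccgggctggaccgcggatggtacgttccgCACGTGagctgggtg
Tef: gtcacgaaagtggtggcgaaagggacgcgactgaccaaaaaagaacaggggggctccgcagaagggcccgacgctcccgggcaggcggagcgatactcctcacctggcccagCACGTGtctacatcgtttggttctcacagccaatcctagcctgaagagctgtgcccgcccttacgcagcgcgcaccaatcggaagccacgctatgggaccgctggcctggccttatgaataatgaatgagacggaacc
Per3: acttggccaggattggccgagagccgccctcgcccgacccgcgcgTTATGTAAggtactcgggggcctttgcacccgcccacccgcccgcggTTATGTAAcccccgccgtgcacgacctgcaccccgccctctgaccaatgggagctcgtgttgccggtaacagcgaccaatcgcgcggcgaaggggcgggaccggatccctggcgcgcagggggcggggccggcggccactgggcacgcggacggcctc

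*Ciart*, which encodes a repressor of CLOCK and BMAL1, holds 3 E-boxes, which begin 116, 58, and 44 bases before the start. The E-box of *Bhlhe41*, a repressor that competes for E-boxes, begins 153 bases before the start, and that of *Tef* 138 bases before it. The pair of D-boxes of *Per3* begins 205 and 158 bases before the start. Of 19 clock and PAR bZIP genes with a promoter in the table, 5 (*Per1*, *Cry1*, *Bhlhe41*, *Ciart*, and *Tef*) held an E-box on either strand, 1 (*Per3*) a D-box in either of the spellings TTATGTAA and TTACGTAA, and 0 the ROR element. Over all 27025 genes of the table, 6.86% held an E-box, 1.10% a D-box, and 0.211% an ROR element. Among the 11137 genes tested here that matched a promoter of the table, the E-box was held by 9.63%, by 9.48% of the 749 of them called higher in KO muscle, and by 8.73% of the 790 called lower. A D-box was held by 0.763% of the genes tested, 0.668% of those called higher, and 1.90% (15 genes) of those called lower. A match is a description of letters in this window, not a site or a cause.

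The 10 libraries held 9325122 to 13022994 reads counted on genes. The deposited values are counts divided by a size factor per library, here called normalized counts. They were compared as log2(normalized count + 1) with limma over 16253 genes, those whose normalized counts averaged above 5, and a gene was called, or said to have risen or fallen, at a Benjamini-Hochberg adjusted P under 0.05. A log2 difference is always KO minus WT and is given ± its standard error (SE) from 5 and 5 libraries. Values per library follow the order of replicates 1 to 5, so the second KO value always belongs to the library labelled KO replicate 2.

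*Arntl*, the targeted gene, did not separate the groups in all 10 libraries. Its normalized counts were 608, 589, 573, 571, and 479.9 in WT and 381, 1039, 395, 312, and 308 in KO muscle. The other 4 KO libraries lay below every WT library, and the library labelled KO replicate 2 lay above them all. The log2 difference was -0.38 ± 0.28 (adjusted P = 0.40, and P = 0.270 in an exact two-sided permutation test of all arrangements, which can go no lower than 0.00794). Without that library it was -0.70 (adjusted P = 0.0015, exact permutation P = 0.00794, the smallest of 126 arrangements). That library was set apart for its *Arntl* level, and the groups without it do not overlap. The permutation P was thus fixed by the choice, and neither P without it is a test of *Arntl*. Counts cover the whole gene, so reads from exons outside the deleted part still count. At 10 weeks *Arntl* fell by 1.14 on the log2 scale (adjusted P = 0.0012).

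The library labelled KO replicate 2 stood apart in other genes too. In 1885 genes (792 above and 1093 below) it lay more than 1 log2 unit outside the range of the other KO libraries, against 290 to 435 genes for each of the others in turn. Yet of the 2641 genes called without it, it lay nearer the KO mean than the WT mean in 76.8%, within the range of the other KO libraries when each was left out (68.4% to 83.7%). Its *Nr1d2* lay among the other KO values, and its *Dbp* and *Per3* lay below them. Results that rest on it are therefore given with and without it.

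In KO muscle 1005 genes were higher and 1137 lower, 6.18% and 7.0% of the genes tested, and 2142 in all (13.2%). At P under 0.01, the threshold of the study, 2507 genes differed with limma and 3029 with DESeq2 on the same 10 libraries. The study used DESeq2 with site as a covariate, so neither number is its own count. Without the library labelled KO replicate 2, 1210 genes were higher and 1431 lower (7.45% and 8.81%), and these included 940 of the 1005 and 1088 of the 1137. The median log2 difference was 0.79 among the genes called higher, of which 138 differed by at least 2, and -1.01 among those called lower, of which 200 did. The 2 groups did not overlap in 1729 called genes (10.6% of those tested). Leaving out another library lowered the count of 2142, to 1336 at the fewest, without WT replicate 3, so counts in gene lists, which are of members that passed the filter, are also given without each library that moved them by more than 1.5 times, for counts of at least 2.

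Of the core clock list, with 20 genes and 18 tested, 3 rose and 7 fell. Among those that fell were the REV-ERB genes and *Per3*. *Nr1d2* was at 1787, 1748, 1855, 1856, and 1557 in WT and 169, 247, 181, 307, and 143 in KO muscle (log2 difference -3.12 ± 0.18, adjusted P = 2.7e-06), and *Nr1d1* at 2611, 2127, 2690.2, 3356, and 2540.0 in WT and 688, 605, 697, 659, and 727 in KO muscle (-1.97 ± 0.12). For both genes each KO library lay well below every WT library. *Per3*, a period gene, was at 357, 268, 313, 433, and 394 in WT and 9.63, 3.58, 18.4, 30.3, and 15.2 in KO muscle (-4.67 ± 0.41, adjusted P = 4e-05). So did genes of repressors at E-boxes: *Bhlhe40* fell by 1.69 and *Bhlhe41* by 2.01 on the log2 scale, and *Ciart* fell by 1.59, each with no overlap. *Per2* fell by 0.84 with KO values of 66.03 to 158 against 152 to 239, so that 1 KO library reached into the WT range.

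The partners of BMAL1 rose instead. *Npas2* was at 41.5, 26.3, 30.1, 17.2, and 34.4 in WT and 269.6, 233, 307, 199.9, and 181 in KO muscle (log2 difference 2.98 ± 0.24, adjusted P = 1.8e-05), and *Clock* at 741, 717, 669, 807, and 635 in WT and 1381, 1438, 1281, 1412, and 862 in KO muscle (0.82 ± 0.14, adjusted P = 0.003). Every KO library exceeded every WT library for both. *Cry1*, a cryptochrome, was at a log2 difference of 0.12 (adjusted P = 0.65) and had been called higher at 10 weeks (0.64, adjusted P = 0.0007).

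Without the library labelled KO replicate 2, 3 core clock genes were higher and 11 lower, with *Rora*, *Csnk1e*, and *Arntl* among those that joined the falls. The library was set apart for its *Arntl* level, so the call of *Arntl* here is no test. *Rora*, an activator at ROR elements, was at a log2 difference of -0.78 with it and -1.11 without it, and the casein kinase gene *Csnk1e* at -0.39 and -0.66. *Per1*, the most acutely inducible period gene, spread widely in both groups, at 251, 1112, 996, 851, and 306 in WT and 418, 3768, 513, 277, and 247 in KO muscle. Its difference was not called with that library (-0.077, adjusted P = 0.96) or without it (-0.76, adjusted P = 0.26). *Cry2* held 4957 normalized counts in that library against 604 to 808 in the other KO and 638 to 893 in the WT libraries.

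**Figure D1:**
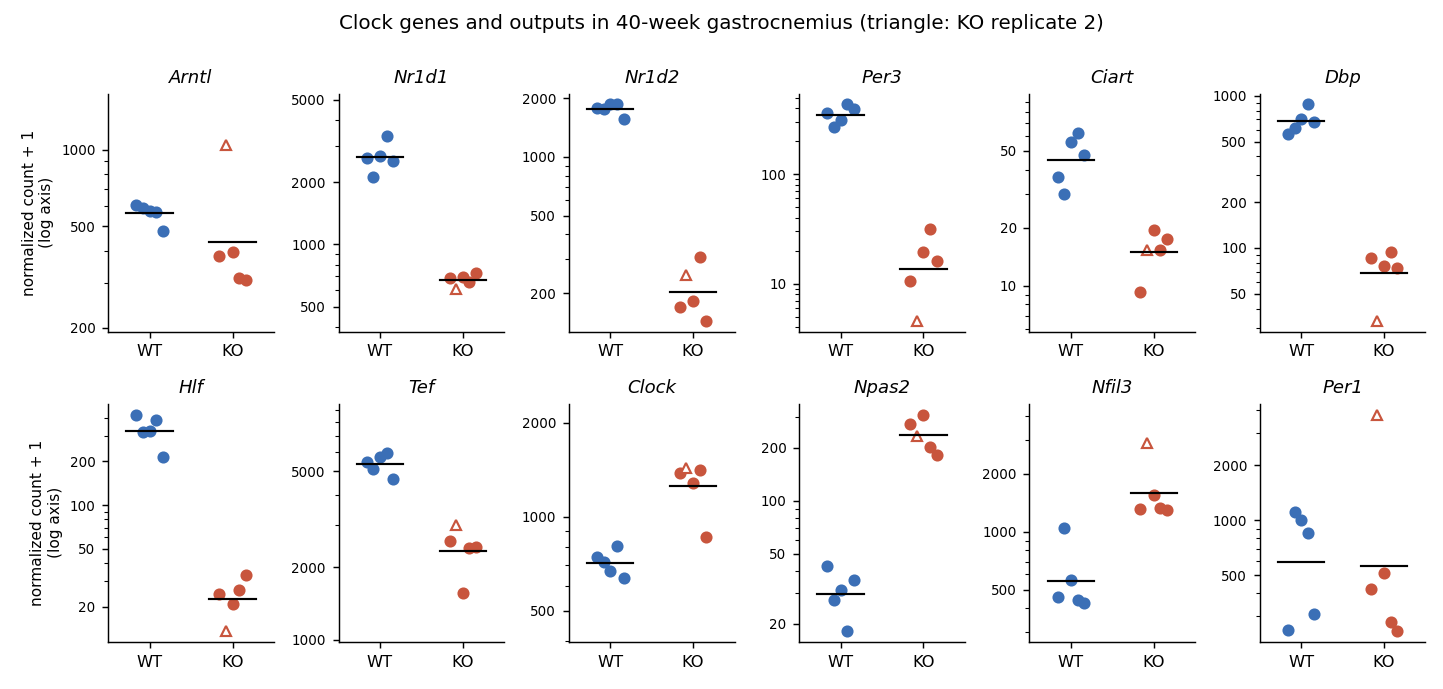
Normalized counts plus 1, on log axes that differ between panels, of 12 clock genes and outputs in the 5 WT and 5 KO libraries. Circles are libraries, the open triangle is the library labelled KO replicate 2, and lines are means on the log2 scale. In *Nr1d1*, *Nr1d2*, *Per3*, *Dbp*, and *Hlf* each KO library lies below each WT library, in *Npas2* and *Clock* each lies above, and in *Arntl* and *Per1* the triangle lies above all other libraries.

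Of 16 PAR bZIP genes and direct outputs, 1 rose and 7 fell, as they did at 10 weeks in number (1 and 7 of 16, where 3.94% and 4.55% of all genes tested were called higher and lower). *Hlf* was at 419.6, 321, 326, 383, and 213 in WT and 23.4, 12.5, 19.9, 24.98, and 31.7 in KO muscle (log2 difference -3.85 ± 0.25) and *Dbp* at 560.4, 615, 703, 877, and 675 in WT and 85.3, 32.2, 75.1, 92.8, and 73.1 in KO muscle (-3.31 ± 0.25). *Tef*, the most abundant of these PAR bZIP factors in normalized counts, fell by 1.2 to 1566 to 2991 from 4647 to 5958. Other members of the list moved unequally. *Wee1*, a cell cycle kinase gene within 10 Mb of *Arntl*, fell by 2.01, *Coq10b*, a coenzyme Q chaperone gene, by 1.69, and *Usp2*, a ubiquitin protease gene, by 0.33. *Nfil3*, the D-box repressor, was the member that rose, at 455, 1050.1, 561, 443, and 427 in WT and 1315, 2894, 1551, 1331, and 1294 in KO muscle (1.53 ± 0.28, adjusted P = 0.0038). The share of exon bases of *Dbp* that overlaps Sphk2 on the other strand is 18.0%, and whether counting used the strand is not given in the sources used here.

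Some muscle genes known as outputs of the clock fell by large amounts. Of 14 such genes, 5 fell and 1 rose (6 and 3 without the library labelled KO replicate 2). *Mylk4*, a muscle myosin light chain kinase gene, was at 40587, 32684, 33698, 35559, and 25750.0 in WT and 143, 66.3, 53.6, 248, and 639 in KO muscle, a log2 difference of -7.76 ± 0.54 (adjusted P = 6.1e-06). An abundant muscle transcript in WT libraries was thus down to 53.6 to 639 normalized counts. *Tbc1d1*, which encodes a Rab GTPase-activating protein that controls GLUT4 traffic, was at 1956, 1581, 1942, 1973, and 1632 in WT and 118, 125, 135, 149.9, and 182 in KO muscle (-3.68 ± 0.13, adjusted P = 3.1e-08). *Cacna2d4*, a calcium channel subunit gene, was at 185, 208, 108, 191, and 164 in WT and 2.75, 0, 1.53, 0, and 2.76 in KO muscle (-6.36 ± 0.44), so that 2 KO libraries held no read of it. *Tcap*, which encodes the titin cap protein of the Z-disc, fell by 1.79 to 6914 to 20921 from 29782 to 35957. The transcription factor gene *Tead1*, which lies within 10 Mb of *Arntl*, fell by 0.65. *Pdk4*, whose product shuts off pyruvate dehydrogenase, rose by 1.88 ± 0.38 (adjusted P = 0.0067), from 3756 to 6030.2 to 6952 to 38858.

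The genes with the smallest P values, at a difference of at least 1 and with no overlap, included several outside the clock. Among those that rose, *Rab11b*, which encodes a Rab GTPase of endosome recycling, was at 1030.4, 1008, 1071, 1060.2, and 1059.8 in WT and 2834, 2925, 2357, 2748, and 2729 in KO muscle (log2 difference 1.37 ± 0.084, adjusted P = 2.7e-06), a small spread in each group. *Cdkn1a*, the cell cycle inhibitor p21, was at 175, 378, 311, 231, and 255 in WT and 9429, 17567, 7834, 5605, and 3011 in KO muscle (4.81 ± 0.38). *Cilp*, a matrix protein gene, went from 366 to 761 to 4841 to 17586 (4.41 ± 0.36). *Dupd1*, a muscle dual-specificity phosphatase gene, rose by 2.91, *Gas6*, a ligand of TAM receptors, by 1.41, *Plvap*, a diaphragm protein of fenestrated endothelium, by 1.55, and *Ppfibp2*, a liprin gene within 10 Mb of *Arntl*, by 1.47. *AC167363.2*, which overlaps *Cdkn1a* on the other strand over 26.1% of its exon bases, rose by 4.65, and reads of the pair cannot be told apart without strand.

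Among those that fell, *Slc2a3*, the glucose transporter GLUT3, was at 539.7, 375, 292, 439, and 251.7 in WT and 4.13, 14.3, 3.07, 10.7, and 4.14 in KO muscle (log2 difference -5.67 ± 0.38, adjusted P = 5.6e-06). *Ces1d*, a carboxylesterase gene of lipid handling, was at 712, 585, 667, 691, and 438 in WT and 8.25, 8.95, 9.2, 17.8, and 24.8 in KO muscle (-5.49 ± 0.29). For both genes the highest KO value was far below the lowest WT value. *Dkk3*, a secreted Dickkopf family protein gene within 10 Mb of *Arntl*, fell by 2.07, *Mreg*, the melanoregulin gene, by 1.70, and *Tmem132b*, a transmembrane protein gene, by 4.63. *Ighg2c*, an immunoglobulin heavy chain constant region gene, held 145, 164, 133, 247, and 71.9 normalized counts in WT muscle and 1.38, 0, 0, 0, and 0 in KO muscle (adjusted P = 2.7e-06). It belongs to a family of near-identical constant regions, so its count is uncertain.

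Slow fiber genes spread widely between libraries, and few of them were called. Of 12 slow fiber genes, 2 rose and 0 fell, and the median log2 difference was 2.03 against -0.010 over all genes tested. The 2 became 1 without WT replicate 1, 3, or 4. *Casq2*, the slow and cardiac calsequestrin, rose from 159 to 545 to 1673 to 5794 (3.04 ± 0.38, adjusted P = 0.00046), and *Myoz2*, a slow fiber Z-disc gene, by 2.01. *Myh7*, the slow myosin heavy chain, was at 32.6, 5154, 54.9, 1267, and 7206 in WT and 2197, 13928, 53008, 723, and 9961 in KO muscle (3.4 ± 1.58, adjusted P = 0.18). The WT libraries alone differed from each other by more than the group means, and *Tnni1*, slow troponin I, did likewise (adjusted P = 0.066). Of 15 fast fiber genes, 1 rose and 1 fell: *Myh1*, the IIX myosin heavy chain, was at 35552, 56595, 49883, 47034, and 73419 in WT and 79033, 140878, 86975, 86728, and 113171 in KO muscle (0.96 ± 0.22), and *Myoz1*, a fast fiber Z-disc gene, fell by 1.05. *Myh4*, the IIB heavy chain and the main one here, was at 212270.0 to 769171 against 574629 to 1006960.0 (-0.52, adjusted P = 0.39).

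Of 10 developmental or stress-induced contractile genes, 6 rose and 0 fell (2 and 1 at 10 weeks), with a median log2 difference of 1.63 (1.29 without the library labelled KO replicate 2). *Ankrd1*, a stretch-responsive ankyrin repeat gene, was at 160.1, 135, 142, 155, and 128 in WT and 2094, 4237, 3162, 3068, and 525 in KO muscle (3.89 ± 0.44, adjusted P = 0.00024). *Myh3*, the embryonic myosin heavy chain, was at 10.4, 107, 19.5, 32.8, and 50.02 in WT and 299.9, 908, 1182, 510.4, and 146 in KO muscle (3.82 ± 0.64, adjusted P = 0.0025). Neither gene overlapped between the groups, although the KO values were widely spread. *Actc1*, cardiac actin, rose by 2.54, *Ankrd2* by 3.08, *Myh8*, the perinatal heavy chain, by 1.85, and *Xirp1*, a gene of injured sarcomeres, by 1.4. Of 18 sarcomere scaffold genes, 5 rose and 0 fell, among them *Myom3*, an M-band gene (2.47), and *Actn2*, an alpha-actinin gene (2.0). *Sln*, the calcium pump inhibitor sarcolipin, was the largest rise among 19 calcium handling genes (3 higher, 3 lower) at 17.8, 25.1, 7.08, 18.8, and 25.01 in WT and 1871, 2695, 2348, 2102, and 134 in KO muscle (6.12 ± 0.71, adjusted P = 0.0003). KO replicate 5 was the lowest KO library in *Sln*, *Ankrd1*, and *Myh3*. *Camk2b*, a calcium-dependent kinase gene, rose by 0.70. Of the 3 calcium handling genes called lower, 1 was called without WT replicate 1, 3, or 4 or KO replicate 3.

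Some genes known to be induced by denervation rose: 8 of 21 in that list, and 0 fell (1 fell without the library labelled KO replicate 2). They included subunits of the acetylcholine receptor at the neuromuscular junction. *Chrnb1* was at 532, 452, 588, 589.5, and 506 in WT and 1922, 1307, 1576, 1578, and 1248 in KO muscle (1.5 ± 0.13, adjusted P = 3.1e-05), and *Chrna1* at 153, 183, 249.6, 163, and 194 in WT and 655, 439, 395, 683, and 619 in KO muscle (1.55 ± 0.19, adjusted P = 0.00034). In both, the lowest KO library was above the highest WT library. *Chrnd*, a further receptor subunit, rose by 0.88, *Colq*, the collagen tail of acetylcholinesterase, by 1.33, *Etv5*, an ETS factor gene of the synapse, by 0.82, and the transcription factor gene *Runx1* by 2.15. Of 8 Schwann cell markers 0 were called by limma and 0 by edgeR, with 0 at an unadjusted P under 0.05.

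Of 16 myogenic regulators, 3 rose and 4 fell. The 4 became 0 without WT replicate 1, 2, 3, or 4, 1 without KO replicate 1 or 3, and 2 with edgeR. *Myog*, myogenin, rose by 1.83 from 29.7 to 90.2 to 106 to 263, and the TEAD factor gene *Tead4* by 0.93. *Mymk*, which encodes the fusion protein myomaker, had no read in the 5 WT libraries and 4.13, 17.9, 26.1, 7.14, and 4.14 normalized counts in the KO libraries, a mean at least 13.1-fold higher than 3 reads over the WT group allow. *Mef2a*, a MEF2 factor gene and one of the calls lost in this way, fell by 0.45 (adjusted P = 0.045). *Myod1*, the myogenic determination gene, was at 488, 495, 430.1, 324, and 461 in WT and 806, 78.8, 467, 990.4, and 692 in KO muscle. Its difference was 0.081 (adjusted P = 0.94) with the library labelled KO replicate 2, which held the lowest value, and 0.71 (adjusted P = 0.027) without it. Of 8 satellite cell markers 0 were called by limma and 0 by edgeR, with 1 at an unadjusted P under 0.05 (1 lower without that library).

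**Figure D2:**
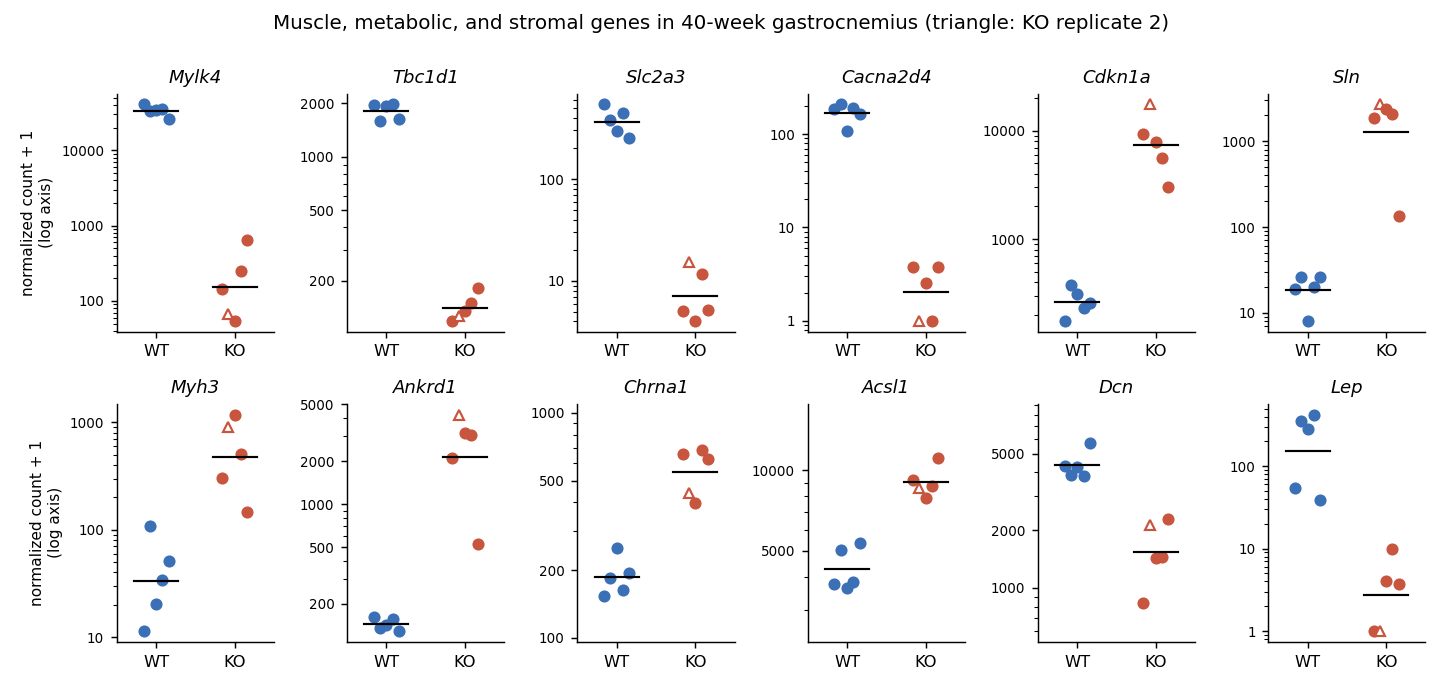
Normalized counts plus 1, on log axes that differ between panels, of 12 genes of muscle, metabolism, and stroma in the 5 WT and 5 KO libraries. Circles are libraries, the open triangle is the library labelled KO replicate 2, and lines are means on the log2 scale. The groups do not overlap in any panel, and KO replicate 5 is the lowest KO library in *Cdkn1a*, *Sln*, *Myh3*, and *Ankrd1*.

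Of 30 genes of fatty acid uptake and oxidation, 17 rose and 1 fell, where 6.18% and 7.0% of all genes tested did, with a median log2 difference of 0.70 (0.65, 16 and 1, without the library labelled KO replicate 2; 12 and 0 at 10 weeks). *Acsl1*, which activates fatty acids for oxidation, was at 3733, 5048, 3637, 3817, and 5354 in WT and 9237, 8577, 7879.5, 8718, and 11114 in KO muscle (1.09 ± 0.14, adjusted P = 0.0005). *Hadha* and *Hadhb*, the subunits of the trifunctional protein of beta-oxidation, rose by 0.96 and 0.97, *Eci1*, an isomerase of the pathway, by 0.94, *Cpt2*, the inner membrane carnitine transferase, by 0.89, and *Fabp3*, the muscle fatty acid binding protein, by 1.51. *Ppargc1a*, the coactivator PGC-1alpha and a regulator of mitochondrial genes, was the member that fell, by 0.67 (adjusted P = 0.047, not called with edgeR), with KO values of 240.0 to 603 against 543 to 667. Of 26 genes of lipid synthesis and storage, 4 rose (7 without KO replicate 2) and 0 fell. *Plin5*, a lipid droplet coat protein gene, was at 114, 355, 173, 159.5, and 374 in WT and 1261, 856, 745, 1049, and 1374 in KO muscle (2.28 ± 0.31), *Agpat3*, an acyltransferase gene, rose by 0.96, and *Pnpla2*, the lipase ATGL, by 1.45 with KO replicate 2 and 1.12 without it. Of 14 cholesterol synthesis and uptake genes, 0 rose and 2 fell, among them the kinase gene *Pmvk* by 1.01.

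Some nuclear genes of the mitochondrial respiratory chain rose, by smaller amounts. In complex I, 8 of 37 were higher and 0 lower, in complexes II, III, and IV, 9 of 27 and 0, and in ATP synthase, 8 of 16 and 0. These counts rested on single libraries. The 9 of complexes II, III, and IV became 4 without WT replicate 1 or 3 or KO replicate 5, 3 without WT replicate 4, and 5 without KO replicate 3. The 8 of ATP synthase became 0 without WT replicate 3, 1 without WT replicate 1 or 4, and 5, 4, and 2 without KO replicates 1, 3, and 5. *Ndufa10*, a complex I subunit, was at 3131, 3777, 3262, 3237, and 3719 in WT and 4834, 5580.4, 5024, 4592, and 5861 in KO muscle (0.59 ± 0.10, adjusted P = 0.0027). *Ndufb8* rose by 0.56, *Uqcrb* of complex III by 0.44, the cytochrome c gene *Cycs* by 0.51, and *Atp5g1* of ATP synthase by 0.53. None of the 13 genes encoded in mitochondrial DNA was called by limma or edgeR (0 at an unadjusted P under 0.05), and their median log2 difference was -0.04. Of 27 genes of the TCA cycle and its shuttles, 14 rose and 1 fell (5 and 1 at 10 weeks), and the 14 became 7 without WT replicate 1 and 6 without WT replicate 3 or 4. Without the filter on low values, the 9 of complexes II, III, and IV, the 8 of ATP synthase, and these 14 became 5, 2, and 8. *Sucla2*, a succinyl-CoA synthetase subunit, rose by 0.71, *Got2*, the mitochondrial aspartate aminotransferase, by 0.92, and its cytosolic relative *Got1* by 1.53 with KO replicate 2 and 1.13 without it. *Pcx*, pyruvate carboxylase, fell by 0.65, and had fallen by 1.02 at 10 weeks.

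Genes of glucose use moved in both directions. Of 29 genes of glycolysis and glycogen, 3 rose and 5 fell. The 3 became 1 without WT replicate 1, 3, or 4 or KO replicate 3 or 5, and the 5 became 2 without WT replicate 1, 3, or 4 and 3 without WT replicate 2 or KO replicate 5. *Pfkm*, the muscle phosphofructokinase, was at 65768, 53111, 60195, 68264, and 56199 in WT and 36909.7, 39073, 27936, 35465, and 34395 in KO muscle (-0.81 ± 0.14, adjusted P = 0.0028), with no overlap. *Ppp1r3a*, the muscle glycogen-targeting phosphatase subunit, fell by 0.84, and *Fbp2*, the muscle fructose bisphosphatase, by 1.43, while *Gbe1*, the glycogen branching enzyme, rose by 1.1 and *Ldhb*, the oxidative lactate dehydrogenase subunit, by 1.57. Of 21 genes of glucose uptake and insulin signaling, 2 rose and 6 fell, among them *Tbc1d1* and *Slc2a3*. The 2 became 1 without KO replicate 1 or any WT library, and the 6 became 3 without WT replicate 1. *Slc2a12*, the glucose transporter GLUT12, fell by 0.88, *Pdp1*, a phosphatase that activates pyruvate dehydrogenase, by 1.04, and *Mpc1*, a mitochondrial pyruvate carrier subunit, by 0.39. *Pdp1* and *Mpc1* thus fell while *Pdk4* rose. *Hk1*, a hexokinase gene, was at a difference of 0.31 (adjusted P = 0.26).

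Of 24 amino acid transporters, 2 rose and 5 fell, the 5 becoming 2 without WT replicate 2 and 3 without WT replicate 3, 4, or 5 or KO replicate 1 or 4. *Slc6a9*, a glycine transporter, was at 119, 107, 103, 111, and 102 in WT and 46.8, 23.3, 24.5, 46.4, and 33.1 in KO muscle (-1.66 ± 0.23), *Slc1a1*, a glutamate transporter, rose by 2.26, and *Slc43a2*, a transporter of neutral amino acids, by 2.06. Of 28 genes of branched-chain and other amino acid metabolism, 4 rose and 1 fell, the 4 becoming 0 without WT replicate 4 and 1 without WT replicate 1, 2, or 3 or KO replicate 5. Of 20 genes of polyamines and creatine, 3 rose and 5 fell. The 3 became 1 without WT replicate 1, 3, 4, or 5, and the 5 became 3 without WT replicate 1, 3, or 4. *Amd1*, the rate-limiting decarboxylase of spermidine and spermine synthesis, was at 34141, 18378, 24279, 21838, and 17211 in WT and 4047, 675, 1243, 7893, and 6904 in KO muscle (-2.98 ± 0.59, adjusted P = 0.0063). Its near-identical copy *Amd2* fell by 3.27, and counts of such a pair are uncertain. The spermine synthase gene *Sms* fell by 0.92 and the spermine oxidase gene *Smox* by 1.31, while *Sat1*, which acetylates polyamines, rose by 1.33 (0.93 without KO replicate 2) and *Ckmt2*, the mitochondrial creatine kinase, by 1.19.

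**Figure D3:**
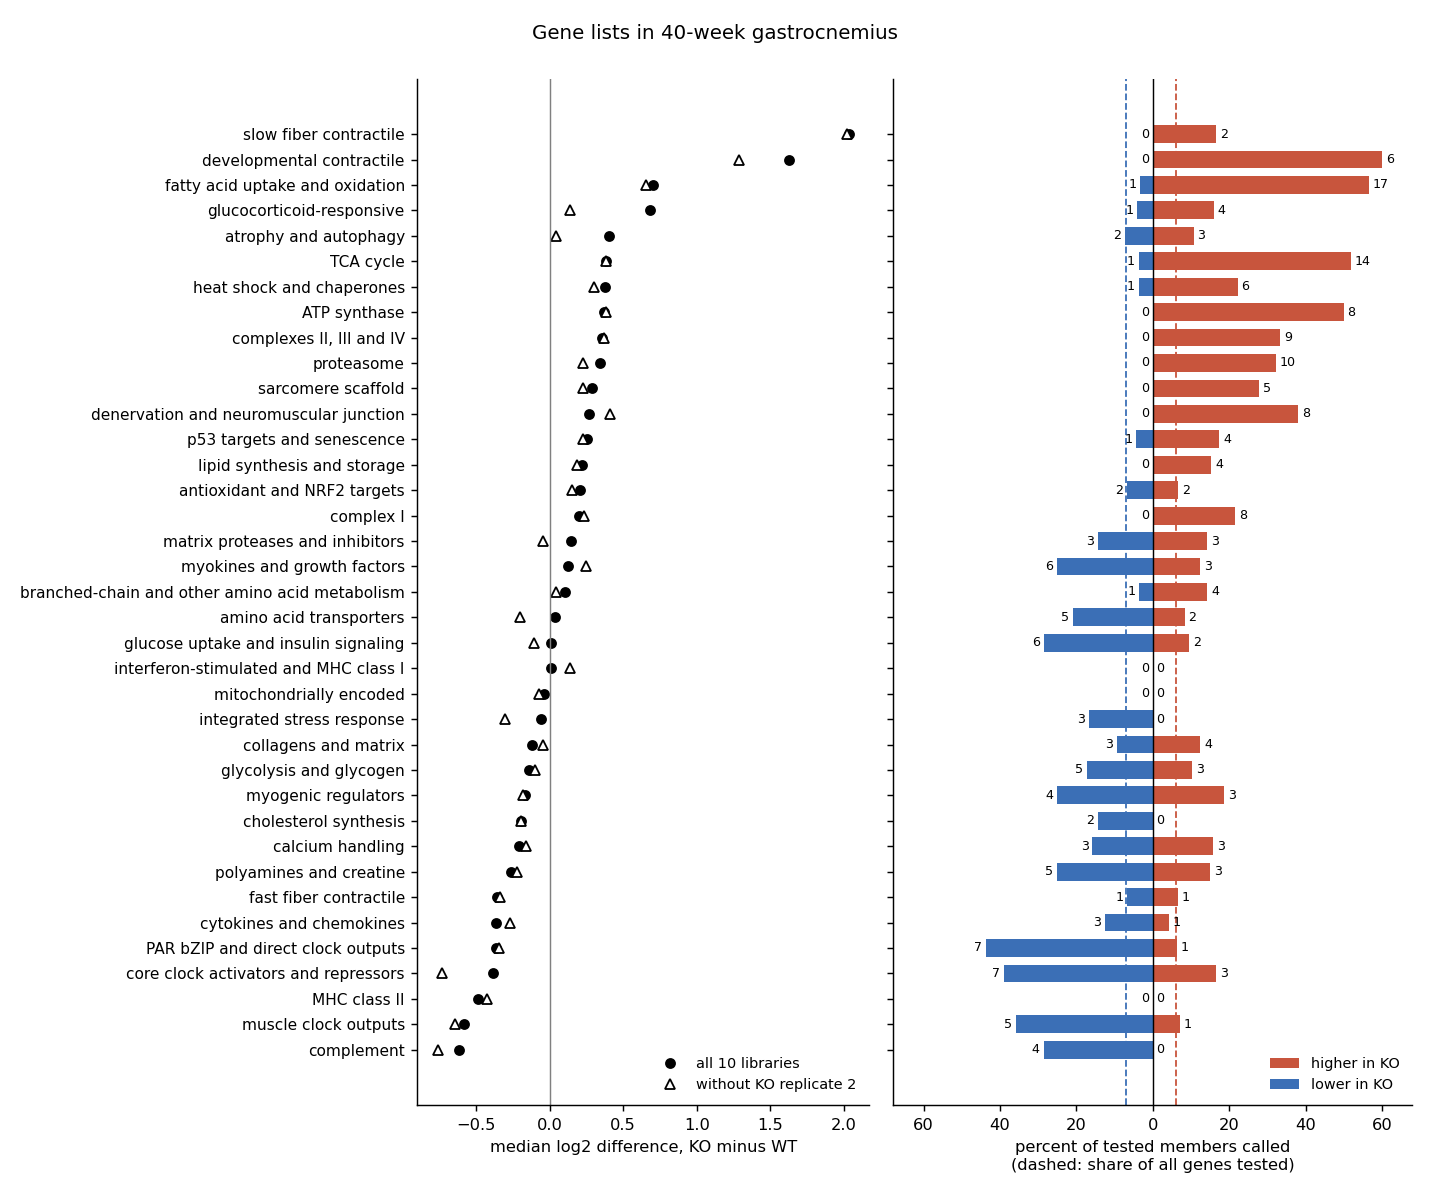
Left, the median log2 difference (KO minus WT) over the tested members of 37 gene lists, in all 10 libraries (filled circles) and without KO replicate 2 (open triangles). Right, the percentage of tested members called higher (red) and lower (blue) with their number, beside the share of all genes tested (dashed, 6.18% and 7.0%). Fatty acid oxidation, developmental contractile, TCA cycle, and ATP synthase lists hold the highest shares of genes called higher in all 10 libraries, although without 1 library those of ATP synthase went from 8 to as few as 0 and those of the TCA cycle from 14 to as few as 6. The circle and triangle differ most in the glucocorticoid and atrophy lists.

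Atrophy genes depended on the library labelled KO replicate 2. Of 28 atrophy and autophagy genes, 3 rose and 2 fell with it, and 6 and 4 without it (7 and 1 in all 10 libraries with edgeR), and the median log2 difference went from 0.41 to 0.043. *Trim63*, the muscle ubiquitin ligase MuRF1, was at 3197, 3368, 3503, 4277, and 2892 in WT and 4219, 63967, 2912, 4456, and 3637 in KO muscle (0.95 with it, adjusted P = 0.38, and 0.14 without it, adjusted P = 0.56). *Fbxo32*, the ligase atrogin-1, held 37693 in that library, 4347 to 8498 in the other KO libraries, and 5773 to 9286 in WT muscle (0.27 and -0.27). Without any 1 WT library 1 atrophy gene was called higher, and 1 lower without WT replicate 1, 2, 3, or 4 or KO replicate 1, 4, or 5. In the other 4 KO libraries both ligases thus lay in or near the WT range. *Tfeb*, a regulator of lysosome genes, fell by 0.94 in all 10 libraries. *Foxo1*, an activator of atrophy genes, was not called with KO replicate 2 (1.37, adjusted P = 0.077) and was without it (0.83, adjusted P = 0.013).

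Glucocorticoid-responsive genes moved with the same library: summed over the 25 genes of that list in the table it held 282055 normalized counts, against 30658 to 41740 in WT libraries. The median log2 difference of these 25 genes was 0.68 with the library and 0.14 without it. Of them 4 rose and 1 fell, and with that library left out 4 and 3, while 2 rose without KO replicate 1 or any 1 WT library and 7 with edgeR. *Fkbp5*, a chaperone gene of the receptor and a classic target, was at 586, 728, 404, 708, and 529.9 in WT and 1439, 4404, 185, 341, and 363 in KO muscle, *Mt1*, a metallothionein gene, at 71.2, 160.4, 90.3, 93.8, and 98.5 in WT and 847, 6513, 261, 123, and 143 in KO muscle, and *Ddit4*, an inhibitor of mTORC1, at 129, 652, 209, 125, and 71.9 in WT and 480.1, 9522, 268, 193, and 157 in KO muscle. None of these was called with that library or without it, and KO replicate 1 was the next highest KO library in each. *Mt2* held 3931 in KO replicate 2, but the share of its exon bases that overlaps a gene on the other strand is 73.5%. *Nr3c1*, the glucocorticoid receptor, fell by 0.65. The part of these high values of 1 mouse in the group differences was not tested beyond leaving the library out.

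**Figure D4:**
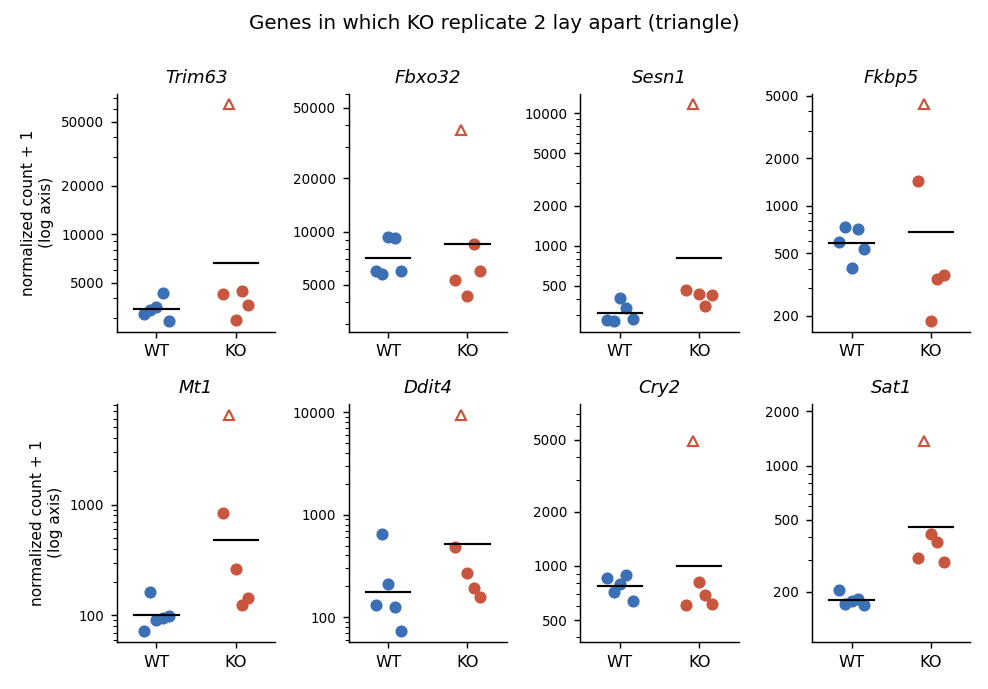
Normalized counts plus 1, on log axes that differ between panels, of 8 genes in which the library labelled KO replicate 2 (open triangle) lay apart, with the other libraries as circles and means on the log2 scale as lines. The triangle is the highest point in each panel, while the other 4 KO libraries lie within or near the WT range in *Trim63*, *Fbxo32*, *Ddit4*, and *Cry2*.

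Some genes of protein quality control rose, while the lists of cell stress genes divided. Over all genes tested 6.18% were called higher and 7.0% lower, and the antioxidant genes lay near these shares. Of 31 proteasome genes, 10 rose and 0 fell. The 10 became 4 without WT replicate 2, 4, or 5, 5 without WT replicate 1, and 6 without WT replicate 3 or KO replicate 4. The amounts were small: *Psmd13* rose by 0.43 and *Psma1*, which lies within 10 Mb of *Arntl*, by 0.50 (0.40 without KO replicate 2). Of 27 heat shock and chaperone genes, 6 rose and 1 fell. The small heat shock protein gene *Hspb6* was at 8205, 11355, 7945, 7545, and 10613 in WT and 27764, 36215, 35931, 18745, and 18936 in KO muscle (1.55 ± 0.21, adjusted P = 0.00077), *Hspb7* rose by 2.26, *Cryab* by 1.46, and *Bag3*, a co-chaperone gene of damaged sarcomeres, by 1.0. Of 23 p53 targets and senescence genes, 4 rose and 1 fell (6 and 1 at 10 weeks, beside 3.94% and 4.55% of all genes tested). Beside *Cdkn1a* they were *Gadd45a*, a DNA damage gene (1.92), *Bbc3*, the apoptosis activator PUMA (1.83), and *Eda2r*, the ectodysplasin A2 receptor (1.21). Of 18 genes of the integrated stress response, 0 rose and 3 fell, among them *Cebpg*, a bZIP factor gene, by 0.68 and *Vldlr*, a lipoprotein receptor gene, by 1.08. Of 30 antioxidant genes, 2 rose (*Nqo1*, a quinone reductase gene, by 0.99, and *Gpx4*, a lipid peroxide reductase gene, by 0.43) and 2 fell, among them *Gstm1*, a glutathione transferase gene, by 0.70. The 2 that rose became 4 without KO replicate 5 and with edgeR, and the 2 that fell became 1 with edgeR and without any 1 library other than KO replicates 2 and 4.

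Of 24 myokines and growth factors, 3 rose and 6 fell. The 6 became 3 with edgeR or without WT replicate 4, and 2 without WT replicate 1, 2, or 3. *H19*, the imprinted noncoding RNA, was at 1911, 4087, 2234, 2183, and 4183 in WT and 19710.1, 29669.5, 41902, 17191, and 9841 in KO muscle (2.93 ± 0.36, adjusted P = 0.00038), and *Igf2*, its imprinted neighbor, rose by 2.1, although 62.8% of the exon bases of *Igf2* overlap another gene on the same strand. *Mstn*, the growth inhibitor myostatin, fell by 1.63, at 116 to 1149.8 against 809.7 to 1804, and *Fst*, its antagonist follistatin, rose by 1.32. *Igf1* fell by 0.98 and *Igfbp5*, an IGF-binding protein gene, by 2.56. *Mstn* and *Igfbp5* were among the calls lost with edgeR (adjusted P = 0.059 for both).

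Markers of fibro-adipogenic progenitors, the connective tissue precursors of muscle, fell in part. Of 8 markers 4 were lower and 0 higher, with a median log2 difference of -1.39, and their summed normalized counts were 16609 to 22039 in WT and 3286 to 8845 in KO libraries, with no overlap. *Dcn*, the matrix proteoglycan decorin, was at 4328, 3887, 4288, 3844, and 5688 in WT and 836, 2126, 1438, 1440.2, and 2289 in KO muscle (-1.51 ± 0.24, adjusted P = 0.0017). *Gsn*, the actin-severing protein gelsolin, was at 12192, 10723, 11049, 12034, and 14022 in WT and 1652, 5689.6, 3812, 3922, and 4845 in KO muscle (-1.7 ± 0.27), and *Pdgfra*, the receptor that defines these cells, fell by 1.27. Fewer such cells and less RNA per cell cannot be told apart in whole muscle. *Aebp1*, a stromal transcription and matrix protein gene that the study names, was at 2166, 1182, 2198, 2078, and 1549 in WT and 179, 401, 322, 198, and 215 in KO muscle (-2.83 ± 0.24, adjusted P = 2.9e-05). Of 32 collagens and matrix genes, 4 rose and 3 fell, where 6.18% and 7.0% of all genes tested did. The 4 became 2 without WT replicate 1, 3, or 4 or KO replicate 3, and the 3 became 1 without WT replicate 1 or 5 and 5 without KO replicate 3. *Col4a2* of basement membrane rose by 0.92, its partner *Col4a1* by 0.70, *Postn*, periostin, by 2.0, and *Thbs4*, a thrombospondin gene of tendon, by 0.87. Of 21 matrix proteases and inhibitors, 3 rose (1 without WT replicate 1 or 3) and 3 fell, with *Mmp3*, stromelysin, up by 2.56 and the inhibitor gene *Timp2* down (log2 difference -1.0). Of 7 tendon markers 1 rose and of 9 endothelial markers 2, with 0 lower in either. The 2 became 0 without WT replicate 1, 3, 4, or 5 or KO replicate 5, 1 without WT replicate 2 or KO replicate 1 or 3, and 4 without KO replicate 2. Limma called 0 of 9 pericyte markers (0 at an unadjusted P under 0.05 and 0 by edgeR) and 0 of 6 cartilage and bone markers (2 and 0). The cartilage and bone markers *Acan* and *Ibsp* had no read in any library.

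Some complement and chemokine genes fell. Of 14 complement genes, 0 rose and 4 fell: *C3* was at 756, 742, 595, 616, and 692 in WT and 64.7, 347, 153, 96.4, and 354 in KO muscle (-2.04 ± 0.41), and the protease gene *C1s1* fell by 0.96. Of 24 cytokines and chemokines, 1 rose and 3 fell, the chemokine genes *Ccl11* by 1.94 and *Cxcl14* by 1.34 and the alarmin gene *Il33* by 1.26. Over all genes tested 6.18% rose and 7.0% fell. The part of the fall in fibro-adipogenic markers in these values was not tested. Limma called 0 of 29 interferon-stimulated and MHC class I genes (5 at an unadjusted P under 0.05 and 1 by edgeR) and 0 of 7 MHC class II genes (0 and 0). It called 0 of 8 macrophage (1 and 0), 3 B and plasma cell (1 and 0), 2 neutrophil (0 and 0), and 5 erythroid markers (0 and 0). *Cd3e*, part of the T cell receptor complex and the 1 T and NK cell marker that passed the filter, was at 34.1, 26.3, 30.1, 29.7, and 25.01 in WT and 5.5, 0, 1.53, 7.14, and 5.52 in KO muscle (-2.95 ± 0.54, adjusted P = 0.0044), and *Cd8a* had no read in any library, nor had the neutrophil marker *Ly6g*. Of 5 mast cell markers 1, the chymase gene *Mcpt4*, fell, by 1.97.

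Of 10 adipocyte markers, 1 rose and 1 fell, where 6.18% and 7.0% of all genes tested did. *Lep*, leptin, was at 53.4, 352, 278, 421, and 37.5 in WT and 0, 0, 3.07, 8.92, and 2.76 in KO muscle (-5.82 ± 0.81, adjusted P = 0.00086), and *Adipoq*, adiponectin, at 43.0, 289, 264, 418, and 51.6 in WT and 27.5, 64.5, 26.1, 16.1, and 67.6 in KO muscle (-2.06, adjusted P = 0.055; -2.28 and 0.035 without KO replicate 2). The WT libraries that were low in *Lep*, replicates 1 and 5, were also low in *Adipoq*. *Cidea*, a lipid droplet gene of brown fat, rose by 2.45. Of 4 epithelial markers that passed the filter, *Krt18* and *Krt8*, keratins of simple epithelia, rose, *Krt18* from 1.25 to 20.3 to 37.2 to 722 (5.17 ± 0.82). The skin markers *Krt5*, *Krt14*, and *Epcam* had no read in any library. Fiber markers summed to 1766660 to 2475150 normalized counts in WT and 1200620 to 2567870 in KO libraries, and 2 of 9 were called higher.

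The genes that the study names for RNA-Seq or qPCR and that are not yet described also divided. Apart from *Fads6*, the paper's text names them from its analysis of younger mice, not from the libraries compared here. It names them for vector-treated KO against untreated KO mice, which is not the comparison made here. For *Mlf1*, *Cask*, and *Stx4a* it takes WT against KO as well. The younger mice belong to the same study, and whether the directions are independent evidence was not tested. *Mlf1*, a myeloid leukemia factor gene, was at 2113, 1887, 1715, 1923, and 1808 in WT and 480.1, 661, 354, 343, and 843 in KO muscle (-1.9 ± 0.22, adjusted P = 0.0003). *Cdh4*, R-cadherin, fell by 3.34, *Itga4*, the integrin alpha-4 subunit, by 1.43, and *Cask*, a membrane scaffold kinase gene, by 0.91. *Car3*, the muscle and fat carbonic anhydrase, was at 24137, 20035, 32099.9, 37678, and 20795 in WT and 7899, 8523, 34988, 10779, and 8177 in KO muscle (-1.17, adjusted P = 0.056). KO replicate 3 lay in the WT range of *Car3* and the other 4 KO libraries below it. Not called were *Pla2g7*, a phospholipase gene (0.65, adjusted P = 0.19), *Fads6*, a fatty acid desaturase family gene (0.63, and 0.91 with adjusted P = 0.016 without KO replicate 2), *Stbd1*, a glycogen-binding protein gene (0.30, adjusted P = 0.43), *Slc7a5*, an amino acid transporter (-0.39, adjusted P = 0.4), and *Stx4a*, the syntaxin of GLUT4 vesicle fusion (-0.28, adjusted P = 0.11).

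Most differences at 40 weeks had the same sign at 10 weeks. The 10-week mice were different ones, but their differences were taken from a model of all 22 libraries with site as a covariate. The spread behind the 10-week calls was thus estimated partly from the 40-week libraries. In that model 635 genes were higher and 734 lower at 10 weeks (8.49% of 16126 in all). Fits of the 10-week libraries of 1 site alone called 944 of 14690 genes (ICBR) and 473 of 16176 (Novogene). Of the 1005 genes called higher at 40 weeks, 361 were also called higher at 10 weeks (35.9% of the former and 56.9% of the latter), 0 were called lower, and 927 of the 992 tested at both ages had the same sign. Of the 1137 called lower, 475 were also called lower at 10 weeks (41.8% and 64.7%), 1 was called higher, and 1061 of 1127 had the same sign. *Cacna2d4* had nearly the same log2 difference at both ages (-6.33 at 10 weeks), as had *Nr1d1* (-1.91) and *Tcap* (-1.79).

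A test of the difference itself, the genotype effect at 40 minus that at 10 weeks in 22 libraries, called 31 genes (0.192% of 16126), 16 with a positive (0.0992%) and 15 with a negative difference (0.0930%). *Lep*, with the widest difference among the named ones, was at 53.4, 352, 278, 421, and 37.5 in WT and 0, 0, 3.07, 8.92, and 2.76 in KO libraries at 40 weeks and 3.28 to 50.3 and 6.73 to 81.1 at 10 weeks (difference of effects -6.75 ± 1.09, adjusted P = 0.016). At 10 weeks the KO values of *Lep* overlapped the WT values. *Mylk4* was already 982 to 2845 in KO against 23639 to 39225 in WT muscle at 10 weeks and fell further (-3.63 ± 0.62, adjusted P = 0.016). *Th*, tyrosine hydroxylase of catecholamine synthesis, had no read in WT libraries at 40 weeks and 107, 125, 70.5, 76.7, and 12.4 normalized counts in KO libraries, a mean at least 86.7-fold higher than 3 reads over the WT group allow, against 1.42 to 10.8 in KO libraries at 10 weeks (adjusted P of the difference of effects = 0.016). *Cntn2*, a contactin of axons, was at 56.4, 8.95, 33.7, 46.4, and 15.2 in KO libraries at 40 weeks and 0 to 3.07 at 10 weeks, with at most 1.56 in WT libraries at either age.

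Smaller age differences were called in genes of transcription and signaling. *Alx4*, a homeobox gene, was higher in KO muscle at 40 weeks (2.73) and not called at 10 (-0.34; difference of effects 3.07). *Pnrc2*, a cofactor of mRNA decay, rose at both ages, by 0.67 and 1.52 (0.85), and so did *Gas6*, by 0.71 and 1.41 (0.70). *Tom1l2*, an endosomal trafficking gene, rose at 40 weeks (0.42) and was at -0.17 at 10 weeks (0.59). *Nr5a2*, a nuclear receptor gene at low level, was called higher at 10 (1.44) and lower at 40 weeks (-1.77), and *Esr1*, the estrogen receptor alpha gene, fell at 40 weeks (-0.84) and was at 0.26 at 10 weeks. *Ighg2c* and *AC167363.2* were called as well (adjusted P = 0.043 and 0.034). *Ighg2c* was at 1.51 to 21.4 in WT and 0 in KO libraries at 10 weeks, against 71.9 to 247 and 0 to 1.38 at 40 weeks. With KO values at or near 0 at both ages, its difference of effects follows the WT level alone. The number of these calls depended on the libraries: with Novogene libraries alone limma called 0 genes (254 at P under 0.01), and leaving out 1 library of 40 weeks gave 9 to 179.

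**Figure D5:**
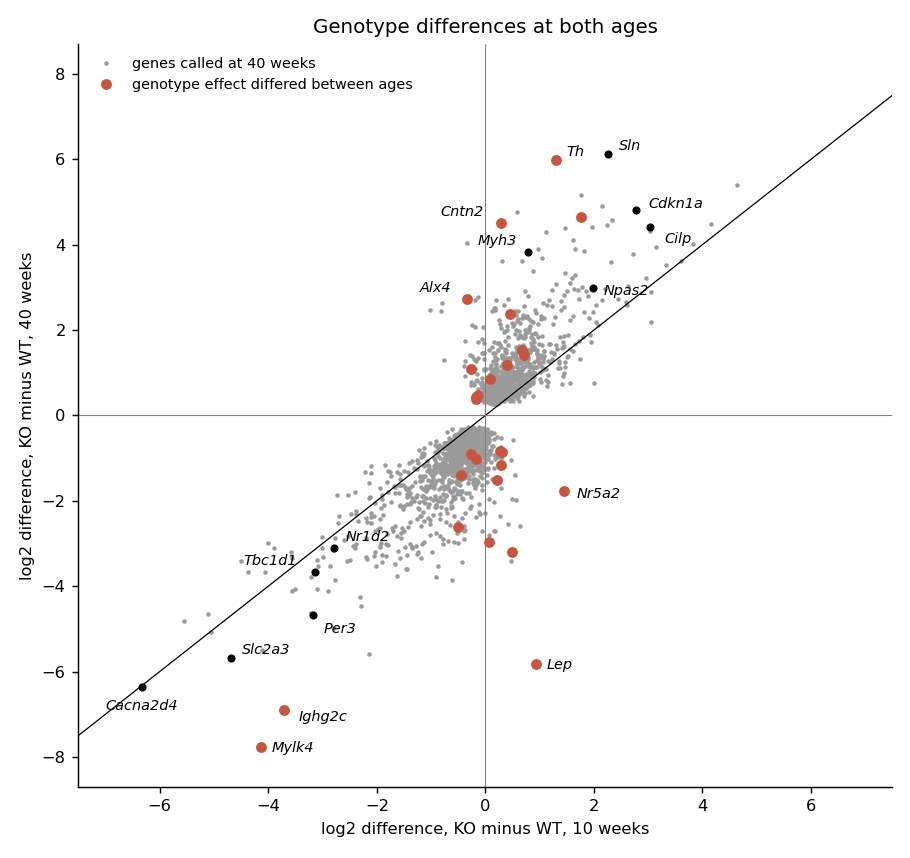
Log2 difference (KO minus WT) at 40 weeks against that at 10 weeks for the genes called at 40 weeks (grey dots), with some named genes in black and genes whose genotype effect differed between the ages in red. The diagonal marks equal differences, and genes were chosen for their call at 40 weeks, which places them away from 0 on that axis. Most points share their sign at both ages, and *Lep* and *Nr5a2* lie in the lower right.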

How the data were processed

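RNA-Seq of 10 gastrocnemius libraries (5 WT, 5 KO, 40 weeks) was analyzed. The authors aligned reads to GRCm38 (mm10) with HISAT2 and counted reads per gene with HTSeq, and the deposited signal values are these counts divided by a DESeq2 size factor per library. All values gave whole reads after this division was undone (tolerance 0.001). Normalized counts of the 55401 genes (99.5% with a symbol) were compared as log2(value + 1) in limma 3.58.1 (lmFit, eBayes with trend) in R 4.3.3, with a mean above 5 as filter, which bears most on genes of few reads. The age comparison and the 10-week differences used 22 libraries with site as a covariate. Coordinates and exon overlaps are those of GENCODE vM21. The annotation release and strand setting of the authors' counts are not given in the sources used here.

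No label pairs the mice by replicate number. Deviations of libraries with the same number correlated at -0.11 to 0.09, and of those with different numbers at -0.14 to 0.19. Litters are not labelled, so these values cannot show whether any mice were paired. No 2 libraries agreed within sampling noise. Libraries are separate mice by the study's methods.

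The genes named are the core clock genes, the 10 with the smallest P in each direction (difference of at least 1, no overlap), up to 4 with the smallest P and the largest differences in each of 37 pathway and 16 marker lists, the genes that the study names, and the 5 with the smallest P in each direction of the age comparison. Not all are printed, and some list members are counted but not reported here by name. Members and lists were chosen with earlier results of these data known. Alternatives included edgeR 4.0.16 and DESeq2 1.42.0 on recovered reads. The code was tested on simulated data. Python 3.11.15 and matplotlib 3.10.9 served for the plots.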

Additional observations from a re-analysis of the deposited data

Results flagged for a closer look

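Among the genes named and the reads per library, 1 library lay far from the other 4 of its group, on the log2 scale, in 32 of the 358 groups of 5 values tested. The usual rate of about 1 in 20 holds for unselected and independent values. These genes were named with their values known and share the libraries, so that rate sets no expectation here. The library labelled KO replicate 2 accounted for 14 of these. It was the highest KO library in *Arntl* (1039 normalized counts), *Per1* (3768), *Cry2* (4957), *Csnk1d*, a casein kinase gene (1859), *Csnk1e* (1418), *Nfil3* (2894), *Pnpla2* (17866), *Got1* (37238), *Trim63* (63967), *Ddit4* (9522), *Sesn1*, a p53 and FOXO target (11637), *Psma1* (1728), and *Sat1* (1375), and the lowest in *Dbp* (32.2).

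Of the other KO libraries, replicate 5 was lowest in *Clock* (862), *Sln* (134), *Eda2r* (550.2), and *Th* (12.4), replicate 3 lowest in *Myh4* (212270.0) and *Gstm1* (711) and highest in *Car3* (34988), and replicate 1 highest in *Ighg2c* (1.38) and lowest in *Mmp3* (9.63). Of the WT libraries, replicate 5 was lowest in *Arntl* (479.9), *Nr3c1* (1433), and *Stbd1* (313) and highest in *Cntn2* (1.56), replicate 3 lowest in *Sln* (7.08), replicate 2 lowest in *Chrnd* (33.8) and highest in *Cebpg* (1075), replicate 1 lowest in *Slc1a1* (17.8), and replicate 4 lowest in *Postn* (25.0).

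The genotype effect differed between 40 and 10 weeks, by limma's test of the interaction, in 12 named genes. Many of them were named for their small P in this test, so 12 follows from that choice. Over all 16126 genes 31 were called (0.192%), and with Novogene libraries alone 0. The difference of log2 effects was -3.22 in *Nr5a2*, -6.75 in *Lep*, -3.63 in *Mylk4*, -3.19 in *Ighg2c*, and -1.1 in *Esr1*. It was 4.68 in *Th*, 4.21 in *Cntn2*, 3.07 in *Alx4*, 2.9 in *AC167363.2*, 0.85 in *Pnrc2*, 0.70 in *Gas6*, and 0.59 in *Tom1l2*.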

How the results depend on the processing

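Of 151 genes named and called, 0 changed direction under any alternative tried, and 123 also stayed called under each. Calls lost in some fit without 1 library were those of *Per2*, *Usp2*, *Tead1*, *Myoz1*, *Myoz2*, *Myh8*, *Xirp1*, *Chrnd*, *Mef2a*, *Ppargc1a*, *Atp5g1*, *Got1*, *Pcx*, *Ldhb*, *Fbp2*, *Mpc1*, *Pdp1*, *Mstn*, *Igfbp5*, *Smox*, *Sat1*, *Col4a1*, *Postn*, *Itga4*, and *Nr5a2*. Those of *Myh1*, *Mcpt4*, and *Thbs4* were lost in the model of 34 libraries. The count of 2142 genes became 3804 in a model of all 34 gastrocnemius libraries and 1336 to 2641 when each library was left out (1353, 1336, and 1398 without WT replicates 1, 3, and 4). It was 1819 with the replicate number as a block, 2159 with edgeR, and 2950 with DESeq2. The 31 calls of the age comparison became 20 with a mean above 50, 15 without a filter, 0 with Novogene libraries alone, 16 without a site term, 60 in the model of 34 libraries, 266 with DESeq2, 1 with the replicate block, and 9 (without WT replicate 3) to 179 (without KO replicate 5) with 1 library left out. No label says that the replicate numbers pair mice. *Arntl* was called with library quality weights (-0.65), without KO replicate 2 (-0.70), and in edgeR without it (-0.69), and lay between -0.70 and -0.26 with each library left out. KO replicate 2 was set apart for its *Arntl* level, so the calls without it are no test of *Arntl*.

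Reversals came only in named genes that were not called. *Per1* became 0.57 with edgeR and 0.58 with DESeq2, and lay between -0.76 and 0.22 with each library left out. *Cry2* became -0.088 with quality weights and -0.20 without KO replicate 2, with limma and edgeR, and lay at up to 0.56 with others left out. *Myod1* lay between -0.20 and 0.71. *Fbxo32* became -0.10 with weights and -0.26 in edgeR without KO replicate 2, and lay between -0.27 and 0.51. *Fkbp5* became -0.16 with weights, -0.0085 in edgeR without KO replicate 2, and lay between -0.44 and 0.70. With 1 library left out, *Cry2* and *Fbxo32* changed sign only without KO replicate 2, and *Fkbp5* without KO replicate 1 or 2. *Per1* and *Myod1*, at -0.077 and 0.081 in all 10 libraries, did so without any of several libraries, so none is singled out. For the other settings the cause was not tested. At 9325122 to 13022994 reads per library, genes near the filter are the least precise.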

Other observations

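At 40 weeks genes near *Arntl* on chromosome 7 were called more often than the 13.2% of all genes tested. Within 10 Mb of *Arntl* 38 of 158 genes were called (24.1%, 15 higher and 23 lower). Among these were *Dkk3*, *Ppfibp2*, *Wee1*, *Tead1*, and *Psma1*. Within 5 Mb 16 of 65 were called (24.6%), within 20 Mb 68 of 398 (17.1%), and on the rest of the chromosome 113 of 880 (12.8%). At 10 weeks, when 8.49% of all genes tested were called, the shares were 4 of 64 genes within 5 Mb (6.25%), 22 of 155 within 10 Mb (14.2%), 48 of 392 within 20 Mb (12.2%), and 55 of 861 on the rest of the chromosome (6.39%), so the nearest window was not above the whole. These windows were chosen after the values were seen and were not tested.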
